A study of Mus musculus with 6 samples.

Results

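The cytosolic ribosome is built from a small and a large subunit, each holding ribosomal RNA and a set of ribosomal proteins that are mostly encoded by single genes. These genes are among the most highly transcribed in any cell, their proteins are needed in equal numbers, and in mammals their mRNAs typically begin with a terminal oligopyrimidine tract (TOP), a C followed by a run of C and T, through which the mTOR pathway controls their translation as one group. The members examined here were the genes whose mouse symbol is Rpl or Rps followed by a number, together with Rpsa, Rplp0, Rplp1 and Rplp2, that are annotated as protein-coding, leaving out the S6 kinases, the pseudogenes named -ps and the -like paralogs. Of 84 gene models with such a name, 3 were not protein-coding and 5 were -like genes, which left 76 members, 46 of the large and 30 of the small subunit. All 76 passed the filter of at least 1 CPM (a count scaled to a library of 1e6 counts) in 3 or more libraries, out of 14723 genes that did. Fau, Rps3a1 and Rack1, which encode ribosomal proteins but carry other names, are described separately.

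RNA was sequenced from the sensory epithelium of the cochlea, the hearing organ, and of the vestibule, the balance organs, of newborn (P0, postnatal day 0) wild type C57Bl/6J mice of both sexes pooled. There were 3 libraries of each tissue. The methods describe both tissues as dissected from the same 20 inner ears of 10 mice, with 450 ng of total RNA in each library, and the labels do not say whether the 3 libraries of a tissue came from separate pools, so p-values measure only the spread between these libraries, which may be technical. A poly(A)-selecting, stranded kit and paired reads of 100 bp were used. The counts on genes ranged from 24464483 to 29225105 in the cochlea and from 25476572 to 33664793 in the vestibule. The tissue labels matched their markers: Tecta, a tectorial membrane protein of the cochlea, had 7170, 9518 and 9877 CPM in cochlea 1, 2 and 3 against 481, 528 and 416 in vestibule 1, 2 and 3, and Oc90, a protein of the vestibular otoconia, had 1287, 1871 and 1279 against 8669, 7731 and 9387. Cochlea 3 stood apart in skeletal muscle genes, whose list summed to 262 CPM there, to 3.97 and 8.37 in the other cochlear libraries and to between 7.49 and 23.2 in the vestibule, with 4 of the 8 listed genes past the filter and Tnnc2 at 0 in all 6 libraries. In such bulk samples, fewer cells of a type and less RNA per cell cannot be told apart.

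Start sites were searched for the pyrimidine run. Windows of 30 bases around the annotated start (RefSeq, GRCm38.p6, written 5′ to 3′ on the strand of the gene, with the 15 bases before the start first) are shown for the called small subunit genes Rps24 at chr14:24490663-24490692 (+), Rps26 at chr10:128626492-128626521 (-) and Rps15a at chr7:118116133-118116162 (-), for Rps6 at chr4:86857353-86857382 (-) and Rpl38 at chr11:114668565-114668594 (+), which were not called, and for Rpsa at chr9:120127751-120127780 (+), which was called and has no such run. Each window spans the gene's promoter and the start of its first exon, and capitals mark the pyrimidine run, a C followed by at least 4 bases that are each C or T.
Rps24: cccgcgctggggtCCTTCCTTgcgcgttga
Rps26: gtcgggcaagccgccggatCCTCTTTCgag
Rps15a: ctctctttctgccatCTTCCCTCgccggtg
Rps6: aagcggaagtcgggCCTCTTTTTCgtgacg
Rpl38: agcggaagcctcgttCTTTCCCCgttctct
Rpsa: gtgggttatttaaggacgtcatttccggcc
In Rps15a and Rpl38 the run began at the annotated start itself. Searching the sense strand from 10 bases before to 10 bases after the first listed start, 31 of the 56 members with a promoter entry (55.4%) held such a run, against 8325 of 27025 genes with an entry (30.8%) and 3610 of 11226 genes past the filter (32.2%). The runs of the members were 5 to 20 bases long, with a median of 8. Annotated starts can lie several bases from the true start of transcription, so a member without a run in this window is one whose annotation does not show it, and nothing follows from it about the mRNA.

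The members took 7.68%, 7.96% and 6.03% of the counts on genes in cochlea 1, 2 and 3, and 4.23%, 5.40% and 6.25% in vestibule 1, 2 and 3. The cochlear libraries averaged 7.22% ± 1.04 (SD, n = 3) and the vestibular libraries 5.29% ± 1.02 (SD, n = 3), and the ranges overlapped, because vestibule 3 lay above cochlea 3. The 95% Wilson interval of each of these shares was at most 0.0211 percentage points wide, which covers counting error only. The highest library exceeded the lowest of its own tissue by 1.32 times in the cochlea and 1.48 times in the vestibule.

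**Figure D1:**
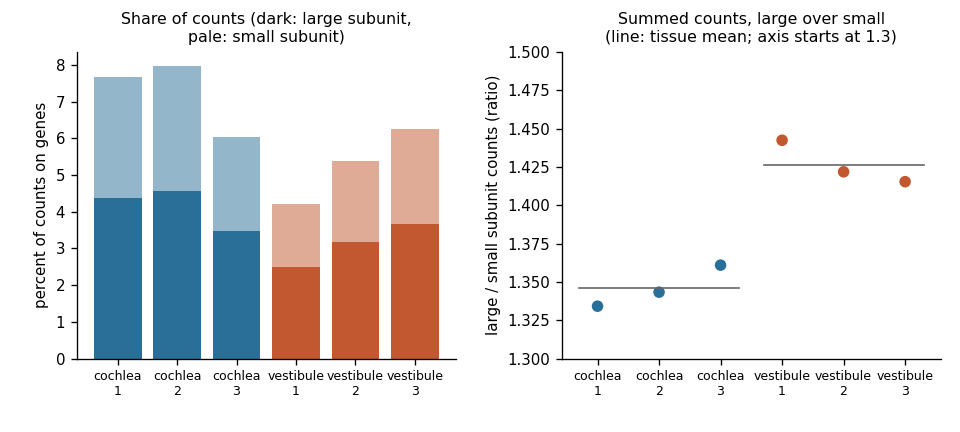
Left, percent of the counts on genes that fell on the 76 ribosomal protein genes in each library, split into large (dark) and small (pale) subunit genes; right, ratio of summed large to small subunit counts per library, on an axis that starts at 1.3, with the mean of each tissue as a line. The shares overlap between cochlea (6.03% to 7.96%) and vestibule (4.23% to 6.25%), whereas the ratios do not (1.33 to 1.36 against 1.42 to 1.44).

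The comparison of the tissues gave a small difference that nearly every member shared. Of the 76 members, 75 had a lower estimate in the vestibule, with a median log2 fold change (vestibule minus cochlea) of -0.55, while the median over all 14723 genes was 0.00, 12% of them were at or below the members' median and 49.5% of them were below 0. By the quasi-likelihood test of edgeR, adjusted over all genes after Benjamini and Hochberg, 8 members (10.5%) were called higher in the cochlea at an adjusted p of 0.05 or less, beside 11.6% of all genes tested, and 0 were called higher in the vestibule, beside 15.8% of all genes. The share of members called was thus near the background. At an unadjusted p under 0.05, the same test had 60 members (78.9%) higher in the cochlea but 0 in the vestibule, against 17.5% and 21.4% of all genes. DESeq2, limma-voom and limma-trend also had 0 members higher in the vestibule. In 22 members (28.9%) all 3 cochlear libraries lay above all 3 vestibular ones, against 19.5% of all genes tested, and in 0 the reverse held, against 22.3%. Markers of several cell types also differed between the tissues. Hair cell markers summed to 701 to 888 CPM in the cochlear and 1101 to 1296 in the vestibular libraries, with 6 of 12 called higher in the vestibule and 1 in the cochlea, and dark cell markers to 684 to 810 and 1109 to 1304, with 4 of 5 called higher in the vestibule. Macrophage markers summed to 96.7 to 116 CPM in the cochlear and 338 to 405 in the vestibular libraries, with 8 of 8 called higher in the vestibule, and melanocyte markers to 41.4 to 70.04 and 281 to 356, with 6 of 6. Endothelial markers summed to 194 to 246 and 379 to 517 CPM, with 5 of 6 called higher in the vestibule and 1 in the cochlea, and Schwann cell markers to 752 to 916 and 1223 to 1665, with 3 of 7 called higher in the vestibule. Mesenchyme markers summed to 4984 to 5750 and 7202 to 8260 CPM, with 3 of 8 called higher in the vestibule and 2 in the cochlea. Supporting cell markers summed to 1762 to 2204 and 1275 to 1692 CPM, with 8 of 10 called higher in the cochlea. Neuron markers summed to 318 to 704 and 139 to 343 CPM, with overlap, and 5 of 8 were called higher in the cochlea. Cartilage and bone markers summed to 10694 to 18157 and 12899 to 15092 CPM, with overlap, and 5 of the 8 tested were called higher in the vestibule and 1 in the cochlea. Their part in the members' difference was not tested. The standard errors of the members, with a median of 0.22, were wide beside the differences, and the lowest adjusted p of any member was 0.031.

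The count of called members rested on single libraries. It was 41 without cochlea 3 (beside 12.8% of all genes called higher in the cochlea) and 49 without vestibule 3 (10%). It was 0 without cochlea 1 (8.07%), without cochlea 2 (7.12%), without vestibule 1 (8.63%) and without vestibule 2 (6.5%). None of these fits called a member higher in the vestibule, where 12.4%, 12.1% and 18.6% of all genes were called without cochlea 1, 2 and 3, and 10.7%, 9.43% and 13.6% without vestibule 1, 2 and 3. The skeletal muscle signal of cochlea 3, given above, was in the library whose removal gave 41; its part in the result was not tested. The direction was the same throughout: in each of these 6 fits 75 members had a log2 fold change below 0, and the median ran from -0.74 to -0.37. DESeq2 called 50 members higher in the cochlea, beside 13.8% of all genes, and 0 in the vestibule, beside 16.8%. limma-voom called 8 (beside 11.5%) and 0 (15.8%). limma-trend on the deposited RPKM matrix called 3 (8.57%) and 0 (18.9%). edgeR with no filter on low counts called 37 (8.05%) and 0 (11.3%), and with library sizes alone 7 (8.5%) and 0 (18.7%). At an adjusted p of 0.1 or less and a fold change of at least 1.3, the edgeR test had 40 members higher in the cochlea (14.5%) and 0 in the vestibule (19%).

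**Figure D2:**
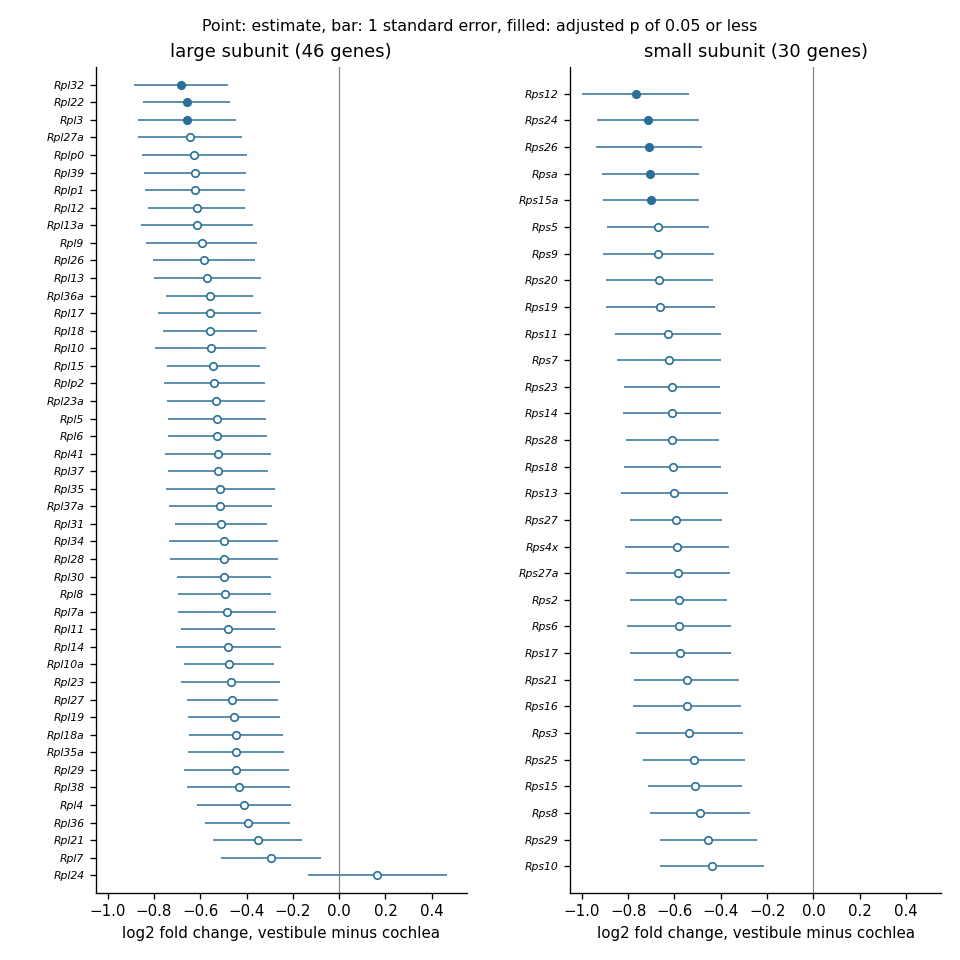
Log2 fold change (vestibule minus cochlea) of each of the 76 ribosomal protein genes, with 1 standard error, for the large (left) and small (right) subunit; filled points had an adjusted p of 0.05 or less in edgeR's quasi-likelihood test. Every estimate but that of Rpl24 lies below 0, between -0.77 for Rps12 and -0.30 for Rpl7, and 3 large and 5 small subunit genes are filled.

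Among the 8 called members, 5 belonged to the small subunit. In GRCm38 these genes are Rps12 (ENSMUSG00000061983) at chr10:23785183-23787275 (-), Rps24 (ENSMUSG00000025290) at chr14:24487125-24496959 (+), Rps26 (ENSMUSG00000025362) at chr10:128624534-128626747 (-), Rpsa (ENSMUSG00000032518) at chr9:120127689-120132369 (+), Rps15a (ENSMUSG00000008683) at chr7:118104372-118116188 (-), and those of the large subunit are Rpl32 (ENSMUSG00000057841) at chr6:115805505-115808747 (-), Rpl22 (ENSMUSG00000028936) at chr4:152325742-152334071 (+) and Rpl3 (ENSMUSG00000060036) at chr15:80077791-80091868 (-). Rps12, a protein of the head of the small subunit, had 1607, 1765 and 1239 CPM in cochlea 1, 2 and 3 and 660, 916 and 1134 in vestibule 1, 2 and 3. All cochlear libraries were above all vestibular ones, but cochlea 3 exceeded vestibule 3 by little. Its log2 fold change was -0.77 ± 0.23 (SE; adjusted p = 0.038 by edgeR's quasi-likelihood test), the largest of any member. Rps24, which like Rps26 is mutated in some families with Diamond-Blackfan anemia, had 1329, 1460 and 1007 CPM in the cochlea against 581, 791 and 941 in the vestibule. Rps26 had 704, 833 and 647 CPM in the cochlea against 302, 473 and 561 in the vestibule. The groups did not overlap in either gene, and the log2 fold changes were -0.71 ± 0.22 (edgeR adjusted p = 0.042) for Rps24 and -0.71 ± 0.23 (edgeR adjusted p = 0.049) for Rps26.

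Rpsa encodes a small subunit protein that was first described as a laminin receptor. It had 2051, 2204 and 1635 CPM in the cochlea against 936, 1244 and 1434 in the vestibule, without overlap, and a log2 fold change of -0.70 ± 0.21 (edgeR adjusted p = 0.036). Rps15a, of the body of the small subunit, had 967, 1073 and 774 CPM against 444, 578 and 710, again without overlap, with -0.70 ± 0.21 (edgeR adjusted p = 0.036). Of the large subunit, Rpl32 had 1162, 1258 and 969 CPM in the cochlea against 541, 696 and 872 in the vestibule, with -0.68 ± 0.20 (edgeR adjusted p = 0.037). Rpl3, a core protein near the peptidyl transferase center, had 1658, 1935 and 1329 CPM against 837, 1034 and 1251, with -0.66 ± 0.21 (edgeR adjusted p = 0.048). Rpl22, whose loss mice are known to survive, had 492, 552 and 423 CPM against 244, 307 and 379; its log2 fold change of -0.66 ± 0.19 had the lowest adjusted p of the members. The cochlear libraries were above the vestibular ones in all 3 of these large subunit genes. Each of the 8 lost its call in 4 of the 6 fits that left out a single library.

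The P stalk, which recruits the GTPases of translation to the large subunit, had no called member, with unadjusted p under 0.05 in 4 of 4, beside 78.9% of all members and 17.5% of all genes. Rplp0, its scaffold, had 3527, 3759 and 2614 CPM in the cochlea against 1723, 2080 and 2613 in the vestibule, so cochlea 3 and vestibule 3 were level. Rplp1, one of the acidic proteins bound to it, had 1823, 1851 and 1365 CPM against 846, 1086 and 1342. Rplp2, its partner, had 727, 800 and 626 CPM against 348, 507 and 626, and here the groups touched. Rpl12, at the base of the stalk, had 1144, 1222 and 869 CPM against 544, 715 and 853. The log2 fold changes of the stalk genes ran from -0.63 to -0.54, and the lowest adjusted p was 0.060 by edgeR's quasi-likelihood test. The 5S particle, in which Rpl5 and Rpl11 carry the 5S ribosomal RNA and, when in excess, bind Mdm2, gave values close to these. Rpl5 had 1444, 1606 and 1134 CPM against 756, 966 and 1178, and Rpl11 had 873, 947 and 680 against 466, 599 and 728. In both, vestibule 3 lay above cochlea 3, and neither was called (adjusted p = 0.099 and 0.12 by the edgeR test).

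Rps6, the substrate of the S6 kinases, had 1078, 1198 and 817 CPM in the cochlea against 520, 687 and 862 in the vestibule, and a log2 fold change of -0.58 ± 0.22 (edgeR adjusted p = 0.089). Rps19, the gene most often mutated in Diamond-Blackfan anemia, had 1061, 1178 and 810 CPM against 452, 670 and 807, with the highest vestibular library just under the lowest cochlear one. Rps27a, which encodes a fusion of ubiquitin and a small subunit protein, had 1150, 1240 and 874 CPM against 530, 748 and 897. Rps4x, the X-linked small subunit gene, had 2395, 2634 and 1928 CPM against 1153, 1575 and 1899. Only in Rps19 and Rps4x among these 4 were the tissues apart, and none of the 4 was called.

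Rpl10, an X-linked gene whose protein is added late in assembly of the large subunit, had 1359, 1653 and 1118 CPM against 668, 950 and 1194. Rpl38, whose loss in the mouse is known to cause skeletal patterning defects and hearing loss, had 375, 387 and 311 CPM against 181, 273 and 340, and a log2 fold change of -0.43 ± 0.22 (edgeR adjusted p = 0.19). Rpl41, which encodes the shortest of the ribosomal proteins, had 1091, 1212 and 753 CPM against 580, 659 and 886. In all 3, vestibule 3 was above cochlea 3 and no call was made. By group, 1 of 14 genes of the small subunit head and 4 of 16 of its body and platform were called, beside 11.6% of all genes, with medians of -0.58 and -0.61. Around the exit tunnel of the large subunit, 0 of 8 were called by the edgeR test (6 of 8 at an unadjusted p under 0.05, beside 17.5% of all genes) with a median of -0.52. Of 19 genes linked to Diamond-Blackfan anemia 2 were called (10.5%), near the 11.6% of all genes.

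Rpl24 stood outside the pattern. It was the member nearest to the filter, with 26, 23 and 24 counts (1.09, 0.867 and 0.837 CPM) in the cochlea and 27, 32 and 31 counts (0.738, 1.18 and 1.23 CPM) in the vestibule, which overlapped, and it was the single member with a positive estimate (0.16 ± 0.30; edgeR adjusted p = 0.72). Per length, its mean of 0.973 RPKM compared with 109 RPKM for Rpl35, the next lowest member. On the same strand, the gene model Gm28037 overlaps 47.0% of the exonic bases of Rpl24 and received 0 counts in all 6 libraries, and reads that fit more than one gene were not counted; the part of this overlap in the low count was not tested. Where 75 members are given below, Rpl24 is left out.

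**Figure D3:**
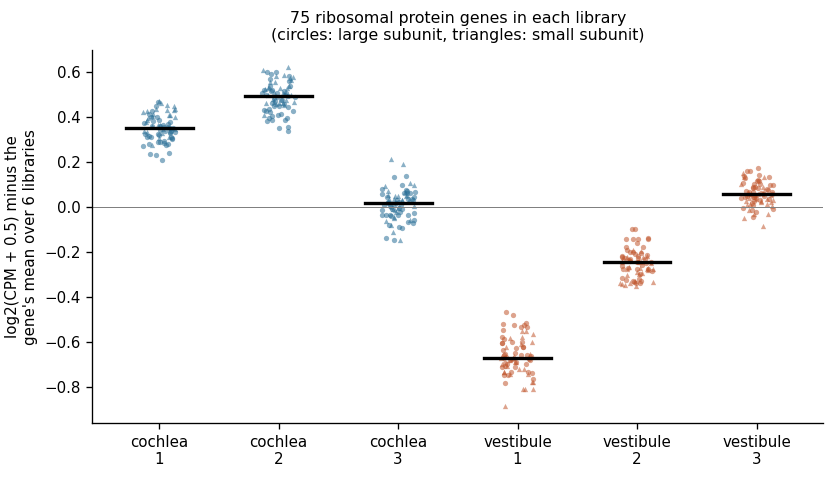
Each point is 1 of 75 ribosomal protein genes (Rpl24 left out) in 1 library, as log2(CPM + 0.5) minus the gene's own mean over the 6 libraries; circles are large and triangles small subunit genes, and black bars are medians. The genes form narrow bands that shift as a whole, with cochlea 2 highest, vestibule 1 lowest, and cochlea 3 and vestibule 3 at nearly the same height.

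Replicates of a tissue differed from each other by shifts that most or all members shared, depending on the library. The median deviation of the members from their tissue mean, in log2 CPM, was 0.07, 0.20 and -0.28 in cochlea 1, 2 and 3 and -0.37, 0.03 and 0.34 in vestibule 1, 2 and 3, while the median over all genes tested lay between 0.00 and 0.01 in every library. In cochlea 3 and in vestibule 1, 76 of 76 members lay below their tissue mean, and in vestibule 3 76 of 76 lay above it. In cochlea 1, cochlea 2 and vestibule 2 the members above their tissue mean were 72, 75 and 63, and those below it 4, 1 and 13. Among the 75 members, the order of the 3 cochlear libraries was cochlea 2, 1, 3 from high to low in 74, and that of the vestibular libraries was vestibule 3, 2, 1 in 75. Over the same 75 members, the common shift held 94.8% of the sum of squared deviations within the cochlea and 97.2% within the vestibule. Once the median of the members in each library was subtracted, the median SD over all 76 members between replicates fell. It went from 0.25 to 0.05 in the cochlea and from 0.36 to 0.05 in the vestibule. The median of the other genes was already near 0 in every library, so subtracting it could change little. Their median SD stayed at 0.22 and 0.18. For the 495 other genes with a mean of at least 250 CPM, which are nearer to the members in level, it went from 0.18 to 0.17 and from 0.18 to 0.14, with 6.73% and 14.8% of the sum of squares shared.

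The spread within a tissue was as large as the difference between tissues for some pairs of libraries. Between cochlea 2 and vestibule 1 all 76 members were higher in the cochlea, with a median difference of 1.16 in log2 CPM. Between cochlea 3 and vestibule 3 only 22 of the 76 members were higher in the cochlea, and the median difference was -0.05. Within the cochlea the SD of log2 CPM was largest in Rpl41 (0.36), Rps3 (0.35), a protein of the mRNA entry site, and Rps9 (0.34). Within the vestibule it was largest in Rpl29 (0.47) and Rpl28 (0.47), both of the large subunit, and in Rps26 (0.46). Rpl29 had 552, 629 and 488 CPM in the cochlea against 275, 437 and 515 in the vestibule. Rpl28 had 750, 852 and 645 against 359, 559 and 675, and Rps3 had 1298, 1547 and 958 against 699, 838 and 1086. The 3 last named followed the common order of the libraries, and their groups overlapped.

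Transcript length moved with the same shift across the libraries. The principal transcripts of the members were short, with a median of 705 bases against 2885 over all genes tested that have one, and 59 of the 76 were of 1000 bases or less. The 892 other genes with a principal transcript of up to 1000 bases had median deviations of 0.09, 0.08 and -0.17 in cochlea 1, 2 and 3 and of -0.23, 0.01 and 0.22 in vestibule 1, 2 and 3, in the direction of the members in each library and smaller in all but cochlea 1. The 2491 other genes with one of over 5000 bases had -0.12, 0.00 and 0.16 in cochlea 1, 2 and 3 and 0.17, -0.00 and -0.16 in vestibule 1, 2 and 3, with the sign opposite to that of the members in replicates 1 and 3 of both tissues. The 33 other genes that were both this short and at a mean of at least 250 CPM had 0.11, 0.13 and -0.26 for the cochlear libraries and -0.28, 0.01 and 0.28 for the vestibular ones, close to the members. For the difference between tissues, the median log2 fold change was -0.04 over the 892 short genes and -0.35 over the 33 short and abundant ones, against -0.55 over the members. The part of transcript length in the members' shift and in their difference between tissues was not tested.

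The alignment summaries of the libraries followed the shift in part. Reads with several alignments made up 10.5%, 12.1% and 9.91% of the listed counts in cochlea 1, 2 and 3 and 8.69%, 9.91% and 10.7% in vestibule 1, 2 and 3, which is the order of the members within each tissue. Reads on no annotated gene made up 4.30%, 4.73% and 7.45% in the cochlear libraries and 6.85%, 6.998% and 5.77% in the vestibular ones, so cochlea 3, where the members were lowest, had the most in its tissue and vestibule 3, where they were highest, the fewest. The order broke elsewhere. Vestibule 1, where the members were lowest, had fewer than vestibule 2, and cochlea 2, where they were highest, had more than cochlea 1. The part of these reads in the shift was not tested.

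**Figure D4:**
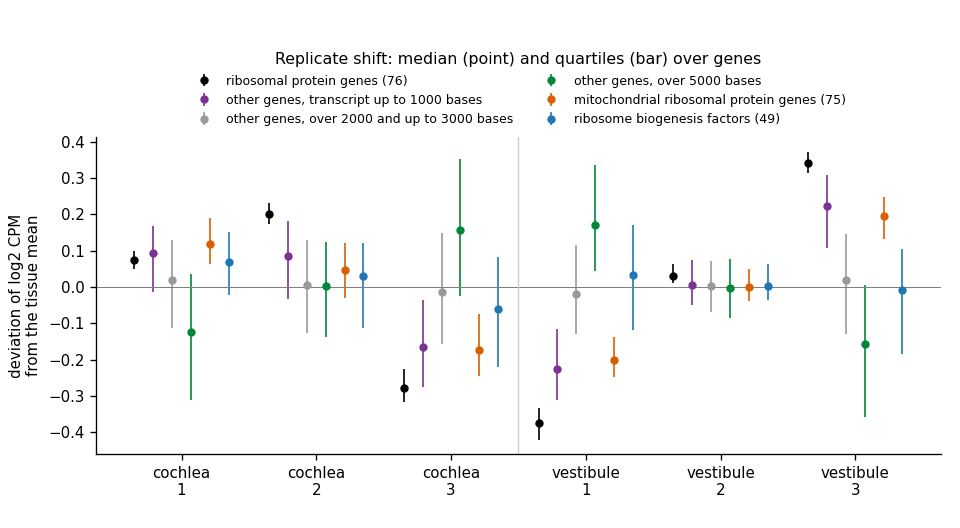
Deviation of log2 CPM from the tissue mean in each library, as the median (point) and quartiles (bar) over genes, for the 76 cytosolic ribosomal protein genes, other genes in 3 classes of principal transcript length, 75 mitochondrial ribosomal protein genes and 49 ribosome biogenesis factors. In cochlea 3, vestibule 1 and vestibule 3 the ribosomal protein genes lie at -0.28, -0.37 and 0.34, short genes lie on the same side, and genes over 5000 bases lie on the other.

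Once the pool of ribosomal protein mRNA was set equal, single members differed between the tissues by less, in part by construction. When libraries were scaled to equal summed counts on the members, a comparison chosen after the data were seen, 56 of the 76 members had a log2 fold change within 0.1 of 0, with extremes of -0.21 for Rps12 and, apart from Rpl24, 0.27 for Rpl7, which was chosen after its values were seen. edgeR's quasi-likelihood test on this scale called 0 members in either tissue, beside 2.53% of all genes higher in the cochlea and 22.5% higher in the vestibule. At an unadjusted p under 0.05 there was 1 member, Rpl7, and no other tool was run. The scaling itself sets the members' middle near 0. The variance estimates drew on all genes, whose values on this scale carry the pool's shift between replicates. The 0 calls therefore cannot show that the composition of the pool was the same. On this scale the median of all genes was 0.59 higher in the vestibule. The standard errors there had a median of 0.13.

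The share within the pool overlapped between the tissues in 52 of the 76 members and did not in the others. Rps12 made up 2.05%, 2.04% and 2.02% of the members' counts in cochlea 1, 2 and 3 and 1.70%, 1.79% and 1.80% in vestibule 1, 2 and 3. Rps15a made up 1.23%, 1.24% and 1.26% against 1.14%, 1.13% and 1.12%. Rpl7, a large subunit protein near the 5S RNA, made up 2.38%, 2.43% and 2.39% in the cochlea against 3.00%, 2.86% and 2.85% in the vestibule. Over the 76 members, 11 had a share that was higher in all cochlear than in all vestibular libraries and 13 the reverse, beside 3.97% and 42.5% of all genes on this scale. The shares of all genes carry the offset of 0.59 that this scale gives them. Of the 11, 8 were small subunit genes, and of the 13, 10 were large subunit genes, among them Rpl24, which lies at the filter. The members comprise 46 large and 30 small subunit genes. Summed over the subunits, the counts of large subunit genes were 1.33, 1.34 and 1.36 times those of small subunit genes in cochlea 1, 2 and 3, and 1.44, 1.42 and 1.42 times in vestibule 1, 2 and 3. This ratio averaged 1.35 ± 0.0136 (SD, n = 3) in the cochlea and 1.43 ± 0.0141 (SD, n = 3) in the vestibule, a difference larger than the spread between replicates, although with 3 libraries a tissue an exact permutation test cannot go below a two-sided p of 0.1. The median log2 fold change of the first fit was -0.52 over the large subunit genes and -0.60 over those of the small subunit.

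Per length, in the deposited log2 RPKM (reads scaled to both library size and gene length), the members had a median of 9.28 for the cochlea and 8.87 for the vestibule, against 2.57 and 2.77 over all genes. The highest were Rplp1 with 11.66 ± 0.22 in cochlea and 11.14 ± 0.27 in vestibule (log2 RPKM, SD, n = 3), and Rps12 with 11.58 ± 0.23 and 10.92 ± 0.33. Below them came Rpl32 (11.03 ± 0.16 and 10.44 ± 0.28), Rplp0 (10.88 ± 0.25 and 10.37 ± 0.23) and Rps15 (10.53 ± 0.19 and 10.13 ± 0.27), a protein of the small subunit head. At the low end, above Rpl24, were Rpl35 of the exit tunnel rim (6.94 ± 0.28 and 6.53 ± 0.37), Rpl35a (7.05 ± 0.16 and 6.70 ± 0.33), a Diamond-Blackfan anemia gene, Rps15a (7.16 ± 0.20 and 6.56 ± 0.27) and Rpl22 (7.33 ± 0.15 and 6.77 ± 0.25). These SDs hold the shift common to the members, so neighbors in the order were compared within each library. Rplp1 exceeded Rps12 in 6 of 6 libraries, by 0.07 ± 0.06 in log2 RPKM over the cochlear libraries and 0.23 ± 0.07 over the vestibular ones (SD, n = 3), and Rps12 exceeded Rpl32 in 6 of 6. Rpl32 exceeded Rplp0 in 6 of 6, by 0.14 ± 0.09 and 0.07 ± 0.05, and Rplp0 exceeded Rps15 in 6 of 6. At the low end Rpl22 exceeded Rps15a, and Rpl35a exceeded Rpl35, in 6 of 6 libraries, the latter pair by 0.11 ± 0.12 in the cochlea, within the spread. Rps15a lay above Rpl35a in 3 of 3 cochlear libraries and below it in 3 of 3 vestibular ones. The order was nearly the same in both tissues, with a Pearson correlation of 0.997 across 75 members, which share their libraries and gene lengths.

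**Figure D5:**
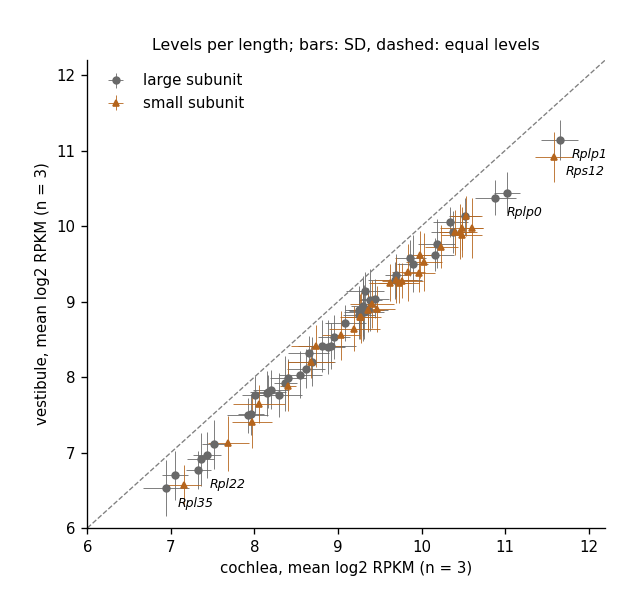
Mean log2 RPKM of 75 ribosomal protein genes in the cochlea (horizontal) and the vestibule (vertical), with the SD over 3 libraries as bars and equal levels as a dashed line; circles are large and triangles small subunit genes. Each gene lies below the dashed line, and the order from Rpl35 to Rplp1 is nearly the same in both tissues.

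The level per length depended on the length the values were divided by. The length implied by the deposited RPKM was a median of 1.91 times the principal transcript, and over 2 times in 36 of the 76 members. For Rps15a it was 6251 bases against a principal transcript of 640, and for Rpl22 2906 against 474. Divided by the principal transcript instead, Rps15a rose from place 73 to place 30 of 76 and Rpl22 from 72 to 54. Rplp1, Rps12 and Rplp0 were among the highest 5 in both orders, and Rpl35 and Rpl24 among the lowest 5 in both. The gene length is the same in every library, so dividing by it leaves the comparison of the tissues unchanged. This concerns the divisor only, and not the shift with transcript length given above, whose part was not tested.

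Reads that align to several places were left out of the counts, and ribosomal protein genes have many processed pseudogenes. Of the 50-base windows of the members' principal transcripts, between 0% and 98.65% also occurred in a transcript of another gene, with a median of 54.5%. These windows are shorter than the paired reads of 100 bp, so the share of reads lost is not known. The levels of members with a high share are uncertain for this reason. The median log2 RPKM was 9.19 in members with under 20% of shared windows, 9.09 with 20% to 70% and 9.03 with over 70%. The 7 members with under 20% of shared windows (among them Rps24 and Rps3) had a median log2 fold change of -0.62, the 39 with 20% to 70% had -0.53, and the 29 with over 70% had -0.57, so the difference between tissues was present in each class. Counts assigned to the 236 -ps genes of the same names came to between 0.242% and 0.280% of the counts of members and -ps genes together. Copies annotated under other names were not part of this. Rpl23, for example, had 0 genes of -ps name, while 39 other genes shared windows with it. The figure is thus not the share of all pseudogene copies.

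Ribosomal protein genes outside the name rule were read beside the members. Rps3a1 had 1829, 2028 and 1418 CPM in the cochlea against 883, 1140 and 1337 in the vestibule, with a log2 fold change of -0.65 ± 0.21 (edgeR adjusted p = 0.051). Rack1, a scaffold on the small subunit head, had 1761, 2062 and 1434 CPM against 949, 1108 and 1412. Neither overlapped between tissues and neither was called. Fau, whose product is a fusion with the small subunit protein S30, had 614, 664 and 471 CPM against 320, 414 and 536, which overlapped (-0.46 ± 0.21; edgeR adjusted p = 0.15).

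Of the 10 listed paralogs, 6 passed the filter and 0 were called by the edgeR test (1 at an unadjusted p under 0.05). Rpl22l1, the paralog of Rpl22, had 153, 196 and 104 CPM in the cochlea against 67.5, 109 and 142 in the vestibule. Rps27rt had 732, 750 and 537 against 342, 446 and 569, and Rpl36al had 96.4, 99.1 and 76.4 against 57.1, 72.0 and 86.6. Their groups overlapped and followed the order of libraries seen in the members. Rps27l, Rpl7l1 and Rps4l had log2 fold changes of -0.15, -0.09 and 0.04; Rps4l is not annotated as protein-coding. Rpl3l, a muscle paralog of Rpl3, had 10 counts in cochlea 3, 0 in the other cochlear libraries and 3, 2 and 0 in the vestibule. Rpl39l was below the filter with 4 to 14 counts a library, Rpl10l had 0 counts in all 6 libraries, which allows up to 3 counts in each, and Rpl26l1 was not analysed here.

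Eef1a1, the elongation factor that delivers aminoacyl-tRNA and itself a TOP mRNA, had 15312, 17412 and 11909 CPM in the cochlea against 7959, 8932 and 11379 in the vestibule, with -0.66 ± 0.26 (edgeR adjusted p = 0.098). Eef2, the translocation factor, had 4737, 5519 and 4031 CPM against 2787, 3245 and 3986 (-0.51 ± 0.22; edgeR adjusted p = 0.12). In these the tissues did not overlap, but cochlea 3 and vestibule 3 were again the closest pair. Tpt1, another TOP mRNA, had 3683, 3789 and 2569 CPM against 1859, 2554 and 3254, with overlap. Of 18 other TOP mRNA genes, 4 (22.2%) were called higher in the cochlea and none higher in the vestibule, beside 11.6% and 15.8% of all genes, with a median of -0.48 against -0.55 for the members. The largest were Nap1l1, a histone chaperone (-1.47 ± 0.16), Eif3e, a subunit of initiation factor eIF3 (-0.81 ± 0.21), and Eef1g, a subunit of elongation factor eEF1 (-0.78 ± 0.22).

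Set beside the same 11.6% and 15.8% of all genes, 4 of 13 elongation factors (30.8%) were called higher in the cochlea, led by Eef1a2 (-2.04 ± 0.45), the form used by neurons and muscle, and 1 in the vestibule, Eif5a2 (1.72 ± 0.15). Eef1a2 had 64.1, 67.1 and 20.3 CPM in the cochlea against 16.3, 7.47 and 13.0 in the vestibule, and the neuron markers summed to 704, 681 and 318 CPM in the cochlea and to 343, 139 and 191 in the vestibule, with 5 of 8 called higher in the cochlea; their part in this was not tested. Of 35 initiation factors, 3 (8.57%) were called higher in the cochlea (Eif3e at -0.81, Eif1ax at -0.60 and Eif2s3x at -0.47) and 0 in the vestibule, with a median of -0.20. Of 49 ribosome biogenesis factors, 3 (6.12%) were called higher in the cochlea, namely Dkc1, the pseudouridine synthase (-0.67 ± 0.12), Nol6 (-0.56 ± 0.13) and Utp15 (-0.45 ± 0.13), with a median of -0.15. Their median deviations from the tissue mean were 0.07, 0.03 and -0.06 in cochlea 1, 2 and 3, with the signs of the members, and 0.03, 0.00 and -0.01 in vestibule 1, 2 and 3, where the signs of the first and the last were opposite to those of the members.

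Mitochondrial ribosomal proteins, which serve the separate ribosome of the mitochondrion, were the nearest list in kind and number. Of 75 genes, 1 (1.33%, beside 11.6% of all genes) was called higher in the cochlea, Mrpl50, and 0 in the vestibule (beside 15.8%). At an unadjusted p under 0.05 by the edgeR test they were 5 and 1, beside 17.5% and 21.4% of all genes. The median log2 fold change was -0.12 against -0.55 for the cytosolic members. Mrpl50 had 66.1, 64.2 and 48.6 CPM in the cochlea against 36.1, 41.7 and 47.5 in the vestibule. Between replicates the mitochondrial list shared the shift in part, with median deviations of -0.17 in cochlea 3, -0.20 in vestibule 1 and 0.19 in vestibule 3. In the same libraries the 18 other TOP mRNA genes lay nearer to the members, at -0.24, -0.28 and 0.28. The 13 elongation factors lay at -0.23, -0.23 and 0.24. Of 18 proliferation genes, 2 (11.1%, beside 11.6% of all genes) were called higher in the cochlea (Mcm2 at -0.59 ± 0.13 and Mcm6 at -0.42 ± 0.13) and 0 in the vestibule (beside 15.8%).

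Among regulators of ribosomal protein genes and TOP mRNAs, 1 of 11 tested (9.09%) was called higher in the cochlea and 0 in the vestibule. This was near the 11.6% of all genes called higher in the cochlea, with 15.8% in the vestibule. Mycn, a transcription factor known to drive ribosome production, had 22.7, 33.8 and 28.4 CPM in the cochlea against 5.25, 5.07 and 4.05 in the vestibule, without overlap, and a log2 fold change of -2.56 ± 0.20 (edgeR adjusted p = 4.0e-05). Myc, its relative, had 14.2, 16.4 and 14.5 CPM against 15.9, 15.1 and 13.5 (-0.02 ± 0.15). Larp1, which binds the TOP tract and holds such mRNAs back from translation, had 66.8, 103 and 137 CPM in the cochlea against 153, 134 and 88.8 in the vestibule, and was not called (0.30 ± 0.28; edgeR adjusted p = 0.47).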

How the data were processed

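Sensory epithelia of P0 cochlea and vestibule were compared, with 3 libraries each. The authors aligned reads to GRCm38 with TopHat2 2.1.0 and counted them per Ensembl gene (release 74) with HTSeq 0.5.4p5, and deposited whole-number counts, from which reads with several alignments are left out (8.69% to 12.1% of the listed counts), as are ambiguous ones (3.22% to 3.63%). They also deposited log2 RPKM values made with edgeR 3.4.2, which were used for levels per length. The summary lines of the count files, 18.5% to 20.6% of the listed counts, were left out of library sizes and tests.

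Symbols, biotypes and lengths came from GENCODE vM21, which matched 37693 of 39179 genes. Genes with at least 1 CPM in 3 libraries were tested in R 4.3.3 with edgeR 4.0.16 (TMM scaling, quasi-likelihood test, tissue as the only term, Benjamini-Hochberg over 14723 genes). CPM values are TMM-scaled and logs used a prior count of 0.5. The members and lists were chosen with earlier results of these data known, so no test over the members was made. Named members were the 6 most changed among those called in each direction, the 5 highest and 5 lowest by RPKM, the 3 with the largest SD in each tissue, members of set roles and those nearest to the filter; outside the members, the genes without an Rpl or Rps number, paralogs, a few TOP genes and regulators, and the 3 most changed of those called in each list, and a gene of these lists is not reported here. Replicate numbers were checked for pairing; alternatives used DESeq2 1.42.0 and limma 3.58.1.

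Shared windows were sought among GENCODE vM21 transcripts, and start sites come from RefSeq. The search of the genome was not run, since no genome sequence was used here.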

Additional observations from a re-analysis of the deposited data

How the results depend on the processing

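The median log2 fold change of the members kept its sign and stayed within the replicate spread under every other setting of the tissue comparison except the scaling to the members' sum, from -0.74 to -0.37 with 1 library left out. Library sizes without TMM gave -0.44 where the median of all genes was 0.13 and called 1251 genes higher in the cochlea against 2754 higher in the vestibule (1711 and 2325 with TMM), and the RPKM matrix gave -0.45 beside 0.13, so the distance of the members from all genes was -0.56 for both TMM and library sizes. The count of members called higher in the cochlea, 8 of 76, was 0 to 49 with 1 library left out. It was 37 with no filter on low counts, 50 with DESeq2, 3 with limma-trend on the RPKM matrix and 40 at an adjusted p of 0.1 or less with a fold change of at least 1.3; the cause was not tested. No alternative called a member higher in the vestibule. Same-numbered libraries did not pair (correlations of -0.18, -0.26 and -0.47 over all genes), and edgeR with a replicate block called 0 members (16 at an unadjusted p under 0.05), with a median of -0.58. The share of all genes called with the block was not taken, so these counts cannot be set against a background. The mean share of counts was 5.80% for cochlear and 4.25% for vestibular libraries with reads on no single gene in the total. With libraries scaled to the members' sum, chosen after seeing the data, the members' median log2 fold change was 0.00, near 0 by construction, and 38 of the 76 were below 0. No named member changed sign under the other settings. Depth limits Rpl24, at 23 to 32 counts a library.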
